A study of Homo sapiens with 2 samples.

Results

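The enzymes that make and recycle nucleotides were examined in CL1-5 cells, a highly invasive human lung adenocarcinoma line, on an array of cells treated with analogue 3 and an array of DMSO control cells. The list holds 37 genes, and its members are the probe sets whose platform annotation names exactly 1 gene that is on the list. By that rule 34 of the 37 genes were found, among 19775 genes named in this way on the array, with 84 probe sets in all. NME2, UCK2 and ADSS2 had no probe set of their own and are not analysed here.

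One culture received 0.11 µM analogue 3 for 24 h. Analogue 3 is a desmosdumotin C analogue that the labels describe as iodo-, tripropyl- and methoxy-substituted, and the series text gives this concentration as its median effective dose in these cells. The other culture received the solvent DMSO for the same time. Total RNA from each was labelled with biotin and hybridised to 1 Affymetrix U133 Plus 2.0 array. With 1 array per group, every difference below compares these 2 arrays, has no replicate check, and carries no test.

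Nucleotides are made either from small precursors (de novo synthesis) or by recycling bases and nucleosides (salvage). Purines are assembled on a phosphorylated ribose, PRPP, whereas the pyrimidine ring is built first and then joined to PRPP. Ribonucleotide reductase converts ribonucleotides into deoxyribonucleotides, the building blocks of DNA. Many enzymes of the deoxynucleotide branch are made mainly in cells that are replicating their DNA, and several are targets of cancer drugs, including thymidylate synthase and ribonucleotide reductase. The members were grouped as 12 deoxynucleotide enzymes, 3 phosphate-transfer kinases that serve both pools, 5 enzymes of pyrimidine synthesis, 12 of purine synthesis with its PRPP supply, and 5 of salvage.

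The sequences upstream of transcription starts are shown first for genes of the deoxynucleotide branch that were higher with analogue 3, because these genes differed in the same direction. They are RefSeq sequences of build GRCh38.p14, printed 5′ to 3′ on the strand of the gene, and each covers the 250 bases before 1 annotated start. Where a gene had several starts, the window with the most matches to the marked motif was printed. The windows were thus picked for the motif. The other DUT windows held no E2F-type motif and the other TK1 window no CCAAT box. The other RRM2 window held 1 CCAAT box, at 249 bases. In RRM2 (chr2:10122489-10122738, plus strand) and TK1 (chr17:78187053-78187302, minus strand) the capitals mark the CCAAT box or its reverse, ATTGG. In TYMS (chr18:657403-657652, plus strand) and DUT (chr15:48331947-48332196, plus strand) they mark an E2F-type motif, TTTCCCGC or TTTGGCGC on either strand.
RRM2: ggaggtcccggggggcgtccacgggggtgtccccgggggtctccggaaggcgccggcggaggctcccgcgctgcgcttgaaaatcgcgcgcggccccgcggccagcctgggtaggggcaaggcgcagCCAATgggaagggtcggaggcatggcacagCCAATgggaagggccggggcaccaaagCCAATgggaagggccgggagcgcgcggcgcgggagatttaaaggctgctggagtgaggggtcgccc
TK1: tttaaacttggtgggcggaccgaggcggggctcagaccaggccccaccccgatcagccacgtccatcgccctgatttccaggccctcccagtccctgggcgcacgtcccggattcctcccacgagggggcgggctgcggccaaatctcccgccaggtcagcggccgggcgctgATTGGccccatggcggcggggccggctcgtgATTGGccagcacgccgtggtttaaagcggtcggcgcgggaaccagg
TYMS: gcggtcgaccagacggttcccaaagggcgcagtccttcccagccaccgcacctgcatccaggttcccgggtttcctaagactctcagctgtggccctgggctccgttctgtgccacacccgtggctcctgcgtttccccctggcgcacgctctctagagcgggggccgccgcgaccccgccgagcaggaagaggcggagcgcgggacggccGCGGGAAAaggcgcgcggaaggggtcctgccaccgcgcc
DUT: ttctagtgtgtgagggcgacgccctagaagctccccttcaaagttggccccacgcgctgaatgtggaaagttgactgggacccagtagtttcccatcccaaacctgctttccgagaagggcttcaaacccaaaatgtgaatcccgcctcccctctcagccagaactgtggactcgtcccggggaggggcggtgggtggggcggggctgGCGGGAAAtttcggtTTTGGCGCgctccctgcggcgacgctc

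RRM2 held 3 CCAAT boxes, which began 123, 93 and 66 bases before this start, and TK1 held 2, both on the opposite strand. DUT held 2 E2F-type motifs, beginning 42 and 27 bases before the start, and TYMS held 1, beginning at 39 bases. Of the listed genes, 34 had at least 1 upstream window in the sequence table, and RRM2B, ADSL and IMPDH2 had none. An E2F-type motif lay in a window of 2 of 11 deoxynucleotide genes (TYMS and DUT) and of 2 of 23 other members (GART and PRPS2), against 2.36% of all 27305 genes in the table. A CCAAT box lay in 5 of 11 deoxynucleotide genes and 7 of 23 other members, against 37.0% of all genes. The E-box CACGTG lay in 2 of 11 and 3 of 23, against 7.73% of all genes. No match of a member overlapped a match to another motif. SAMHD1, which was lower with analogue 3, also held 2 CCAAT boxes, so the motif did not separate higher from lower members. These are matches of letters and not measured binding sites, and a gene with several annotated starts had several windows.

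Intensities are given as the authors deposited them, on a linear scale on which the median probe set of each array is 1. Each gene is represented by its brightest probe set. Values under 32 times the array median (log2 5) were raised to that floor before log2 differences were taken, analogue 3 minus DMSO. A gene is called measured if at least 1 array reached the floor, and where only 1 did, the fold is a bound and is written "at least". Of the 34 members, 30 were measured, and TK2, DHODH, CTPS2 and IMPDH1 lay under the floor on both arrays.

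The plot of levels shows most of the measured deoxynucleotide enzymes spread farther apart between the arrays than the purine enzymes. DCTD and RRM2B lay close together on both arrays, and DCK spread less than PRPS1, PRPS2 and PAICS.

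**Figure D1:**
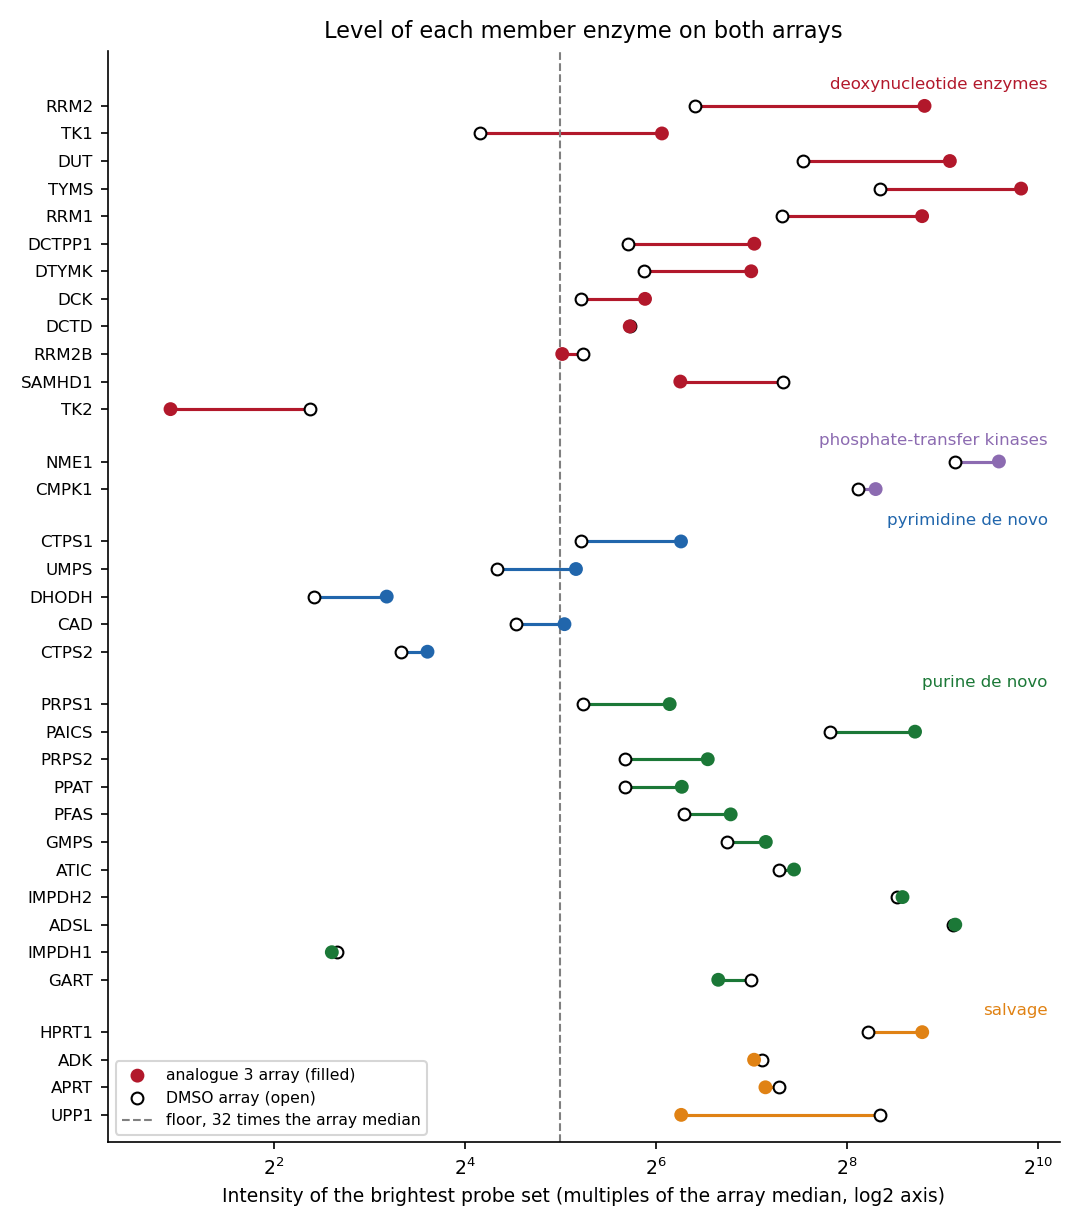
Intensity of the brightest probe set of each of the 34 members (log2 axis, multiples of the array median) on the analogue 3 array (filled) and the DMSO array (open), by enzyme class, with the floor dashed. RRM2 lies at 449.9 with analogue 3 against 85.3 with DMSO, and UPP1 at 77.0 with analogue 3 against 325.3 with DMSO.

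Of the 30 measured members, 8 were at least 2-fold higher with analogue 3, against 3.47% of all 5050 measured genes. They were RRM2, DUT, TYMS, RRM1, DCTPP1, DTYMK, TK1 and CTPS1, and 7 of these 8 belong to the deoxynucleotide branch. Another 2 members, UPP1 and SAMHD1, were at least 2-fold lower, against 2.67% of all measured genes. The median log2 difference was 1.13 over the 11 measured deoxynucleotide enzymes and 0.19 over the 19 other measured members, against -0.01 over all measured genes. The second value depended on the floor, and was 0.46 over the same number of members at log2 4, where the DMSO values of CAD and UMPS were no longer raised. In bulk RNA, more cells of a kind (such as cells in S phase) and more RNA per cell cannot be told apart.

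**Figure D2:**
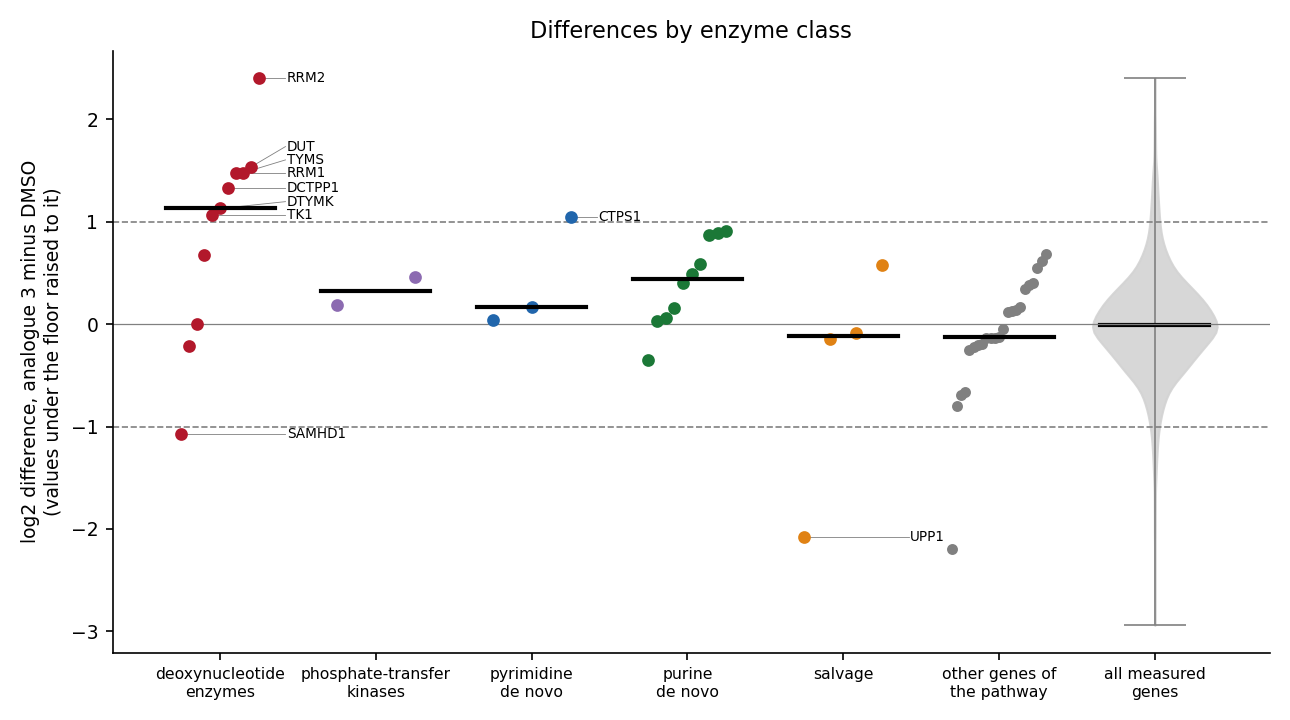
Log2 difference (analogue 3 minus DMSO, values under the floor raised to it) of each measured member by class, of the other genes of the pathway, and of all 5050 measured genes (violin, whose line spans lowest to highest). Black bars are medians, dashed lines mark 2-fold, and 7 of the 11 deoxynucleotide enzymes lie above the upper line.

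Both subunits of the ribonucleotide reductase that works in S phase were higher with analogue 3. RRM2, the small subunit, which carries the tyrosyl radical, had an intensity of 449.9 with analogue 3 and 85.3 with DMSO, or 5.28-fold higher. Its second probe set read 268.5 with analogue 3 and 64.6 with DMSO, a log2 difference of 2.06 beside 2.40 in the brightest. With the floor in place, no other of the 5050 measured genes had a larger difference upward. RRM1, the large catalytic subunit, had an intensity of 442.0 with analogue 3 and 159.4 with DMSO, or 2.77-fold higher. A second, dimmer probe set of RRM1 read 34.4 with analogue 3 and 13.2 with DMSO, an unfloored log2 difference of 1.38 beside 1.47. RRM2B, the small subunit that p53 induces and that serves cells outside S phase, had 32.5 with analogue 3 and 37.7 with DMSO. Its log2 difference of -0.22 was close to the 0.17 by which 1 probe set of a gene typically scatters. The paralogues RRM2 and RRM2B thus differed from each other by 2.62 in their log2 differences.

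TYMS, DUT and DTYMK, which act in making thymidine nucleotides, were also higher. TYMS, thymidylate synthase, which methylates dUMP to dTMP, had an intensity of 906.5 with analogue 3 and 325.7 with DMSO, or 2.78-fold higher. In a second probe set TYMS read 143.4 with analogue 3 and 38.9 with DMSO, a log2 difference of 1.88. DUT, the dUTPase, which supplies dUMP and keeps uracil out of DNA, had 540.6 with analogue 3 and 186.7 with DMSO, or 2.90-fold higher. Its second probe set, at 346.1 with analogue 3 and 114.1 with DMSO, gave 1.60 on the log2 scale beside 1.53. The brightest DUT probe set is of the _x_at kind, whose probes may match related transcripts too, and both probe sets gave close values. DTYMK, the kinase that turns dTMP into dTDP, had 127.9 with analogue 3 and 58.6 with DMSO, or 2.18-fold higher. Its next probe set read 61.4 with analogue 3 and 23.7 with DMSO, an unfloored log2 difference of 1.38 beside 1.13.

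Of the thymidine kinases, which salvage thymidine, the cytosolic enzyme was higher with analogue 3 and the mitochondrial enzyme was not measured above the floor. TK1, the S-phase cytosolic enzyme, had an intensity of 66.9 with analogue 3 and 17.9 with DMSO. The DMSO value lay under the floor, so TK1 was at least 2.09-fold higher, and its unfloored log2 difference was 1.90. Its second probe set, at 56.9 with analogue 3 and 13.9 with DMSO, gave 2.04 without the floor. TK2, the mitochondrial enzyme, had 1.89 with analogue 3 and 5.21 with DMSO, both far under the floor, so no fold is given.

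DCTPP1, a pyrophosphatase that hydrolyses dCTP and modified cytosine nucleotides, was higher, at 130.8 with analogue 3 and 52.2 with DMSO (2.51-fold). DCK, deoxycytidine kinase, which also activates cytarabine and gemcitabine, was 59.2 with analogue 3 and 37.1 with DMSO, or 1.59-fold higher. DCK is therefore above 1.5-fold and under 2-fold. DCTD, which deaminates dCMP to dUMP, had 53.0 on both arrays, and its other probe sets gave log2 differences of -0.31 and -0.08. DCTD was in this unlike DUT, which also supplies dUMP and was 2.90-fold higher.

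SAMHD1, which degrades deoxynucleoside triphosphates and so opposes the enzymes above, differed in the opposite direction. SAMHD1 read 76.5 with analogue 3 and 161.1 with DMSO, or 2.11-fold lower. The next brightest SAMHD1 probe sets read 51.5 with analogue 3 and 121.3 with DMSO, and 32.8 with analogue 3 and 82.7 with DMSO. Their log2 differences were -1.23 and -1.33, beside -1.08 in the brightest, so all 3 probe sets above the floor were at least 2-fold lower. The dimmer SAMHD1 probe sets, under the floor on both arrays, gave unfloored log2 differences of -0.76, -0.27 and -0.67, short of 2-fold. SAMHD1 was the only measured deoxynucleotide enzyme at least 2-fold lower, and TK2 was not measured. When the floor was lowered to log2 1, 2 of 12 deoxynucleotide enzymes were at least 2-fold lower, against 5.25% of all genes at that floor. The second was TK2, whose intensities lay far under the main floor.

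The measured kinases that add phosphates in both pools were each higher by less than 1.5-fold. NME1, a nucleoside diphosphate kinase, had 771.8 with analogue 3 and 560.7 with DMSO, or 1.38-fold higher. CMPK1, which phosphorylates UMP, CMP and dCMP, had 315.5 with analogue 3 and 277.1 with DMSO, with log2 differences of 0.19 and 0.17 in its brightest probe sets. NME2 is a close relative of NME1, and whether the NME1 probe set also reads NME2 transcripts was not tested.

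All 5 enzymes of pyrimidine synthesis lay near or under the floor on the DMSO array, and 1 of them was at least 2-fold higher with analogue 3. CTPS1, which converts UTP to CTP, had an intensity of 76.8 with analogue 3 and 37.3 with DMSO, or 2.06-fold higher, just past the 2-fold mark. CAD, the enzyme of the first 3 steps, had 33.0 with analogue 3 and 23.2 with DMSO, at least 1.03-fold higher against the floor. UMPS, which completes UMP, had 35.9 with analogue 3 and 20.2 with DMSO, at least 1.12-fold higher. Without the floor the log2 differences of CAD and UMPS were 0.51 and 0.83, so their bounds reflect how near the floor they lie. DHODH, the mitochondrial step between them, had 9.08 with analogue 3 and 5.37 with DMSO. CTPS2, the second CTP synthase, had 12.2 with analogue 3 and 10.1 with DMSO, and its dimmer probe set gave 7.01 with analogue 3 and 10.6 with DMSO, the opposite direction. DHODH and CTPS2 lay under the floor on both arrays.

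In purine synthesis no member was at least 2-fold different, and 4 of 10 measured members were at least 1.5-fold higher, against 9.45% of all measured genes. These were PRPS1, PRPS2, PPAT and PAICS. PRPS1 had an intensity of 70.8 with analogue 3 and 37.6 with DMSO, or 1.88-fold higher. PRPS2 had 93.3 with analogue 3 and 51.1 with DMSO, or 1.83-fold higher. Unlike the paralogues RRM2 and RRM2B, the PRPP synthetases gave nearly the same log2 difference, 0.91 and 0.87. PRPS1 was the member nearest to 2-fold among those that did not reach it.

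PPAT, the amidotransferase that commits PRPP to purines, had 77.3 with analogue 3 and 51.3 with DMSO, or 1.51-fold higher. PAICS, a bifunctional enzyme that carboxylates the imidazole ring and then joins aspartate to it, had 419.9 with analogue 3 and 227.3 with DMSO, or 1.85-fold higher. Its second probe set gave a log2 difference of 0.76 beside 0.89. These genes lie head to head on chromosome 4. The 136 bases between the PPAT start and the nearest annotated PAICS start (chr4:56435616-56435751, build GRCh38.p14, plus strand, the strand of PAICS) are shown because both neighbours were higher. None of the motifs above lay between these starts, and the E-box counted for PPAT lay beyond this PAICS start. Another annotated PAICS start, at 56436260, lies farther on, so the E-box falls between that start and the PPAT start. A further annotated PAICS start, at 56410507, lies on the other side of the PPAT start, and the head-to-head layout does not hold for it.
PPAT-PAICS: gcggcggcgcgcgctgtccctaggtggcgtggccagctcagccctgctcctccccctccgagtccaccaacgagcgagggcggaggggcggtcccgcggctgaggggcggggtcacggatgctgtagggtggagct

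The rest of the purine route differed less. PFAS, which acts before PAICS, had 110.2 with analogue 3 and 78.8 with DMSO, or 1.40-fold higher. GART, the trifunctional enzyme of 3 early steps, had 100.7 with analogue 3 and 128.1 with DMSO, a log2 difference of -0.35, but 50.6 with analogue 3 and 50.4 with DMSO in its second probe set. The second GART probe set gave a log2 difference of 0.01, under the probe-set scatter of 0.17. Of the measured GART probe sets, only the brightest therefore differed beyond that scatter. ADSL, which releases fumarate at 2 steps, had 562.3 with analogue 3 and 551.4 with DMSO, or 1.02-fold. ATIC, which closes the ring to IMP, had 174.5 with analogue 3 and 156.6 with DMSO, or 1.11-fold higher. For ADSL and ATIC the log2 differences, 0.03 and 0.16, were under the probe-set scatter of 0.17.

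Beyond IMP, the 2 measured members of the guanine branch were each under 1.5-fold different. IMPDH2, the main IMP dehydrogenase of proliferating cells, had an intensity of 383.4 with analogue 3 and 369.3 with DMSO, or 1.04-fold. IMPDH1, its paralogue, was under the floor at 6.10 with analogue 3 and 6.31 with DMSO. GMPS, which turns XMP into GMP, had 142.2 with analogue 3 and 107.5 with DMSO, or 1.32-fold higher.

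The salvage enzymes held the largest difference downward. UPP1, uridine phosphorylase, which splits uridine into uracil and ribose 1-phosphate, had an intensity of 77.0 with analogue 3 and 325.3 with DMSO, or 4.23-fold lower. It ranked 13 from the bottom among the 5050 measured genes and rests on a single probe set. HPRT1, which salvages hypoxanthine and guanine, had 442.4 with analogue 3 and 297.5 with DMSO, or 1.49-fold higher. APRT, which salvages adenine, had 141.8 with analogue 3 and 157.0 with DMSO, and ADK, adenosine kinase, had 130.6 with analogue 3 and 138.8 with DMSO. The log2 differences of APRT and ADK, -0.15 and -0.09, were under the probe-set scatter.

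The scatter of both arrays places these members among all measured genes.

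**Figure D3:**
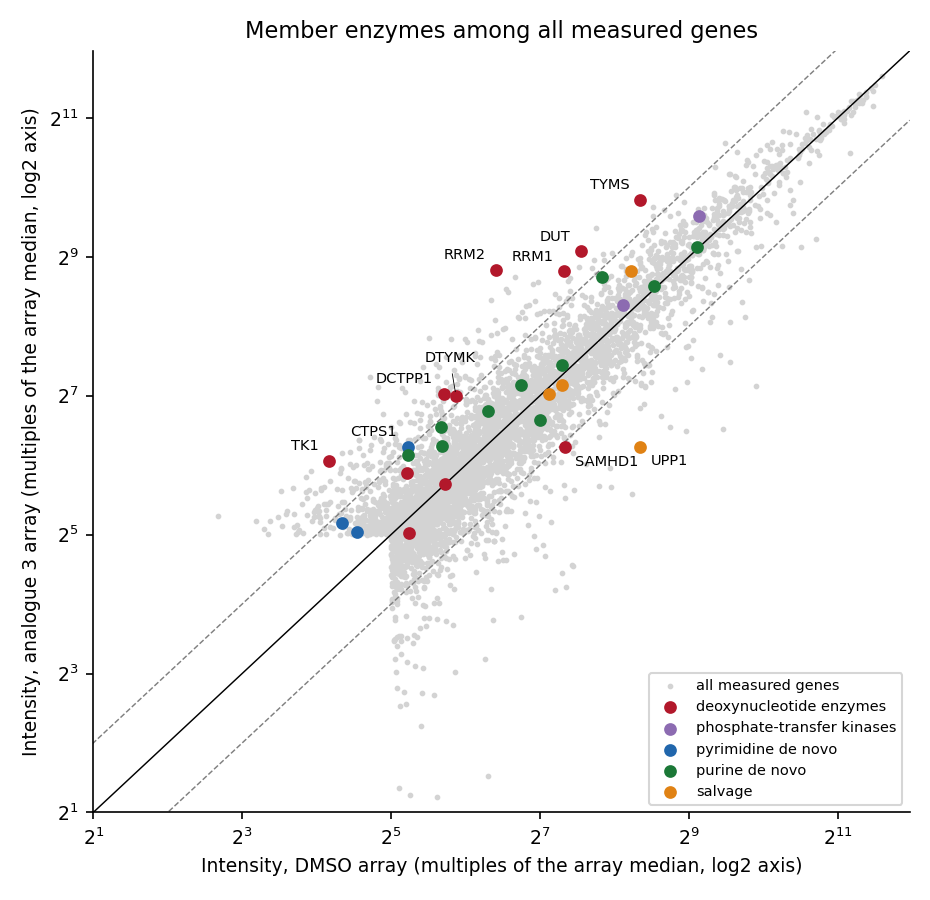
Intensity on the analogue 3 array (vertical) against the DMSO array (horizontal) for 5050 measured genes (grey) and the 30 measured members (coloured by class), both on log2 axes in multiples of the array median. The solid line marks equality and the dashed lines 2-fold. The 10 named members lie outside 2-fold, 8 above and 2 below, and TK1 is plotted at its deposited DMSO value of 17.9.

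Probe sets of the same gene gave the only internal measure of error. For 1127 genes a second probe set also reached the floor on each array, and from these pairs the scatter of 1 probe set was 0.17 (SD, log2 scale). It leaves out differences between cultures, RNA preparations and hybridisations. Among the members, 14 had at least 2 measured probe sets, and in 11 of these all measured probe sets had the same sign. The exceptions were GART, ADSL and APRT, whose brightest probe sets were within 0.35 of 0. With no value raised, the widest span between measured probe sets of a member was 0.41, in TYMS, and there both values exceeded 2-fold. Probe sets under the floor on both arrays were left out of this span. With the floor applied, the dimmer probe sets of RRM1 and PRPS1, whose DMSO values were raised, gave bounds of 0.10 and 0.26 beside 1.47 and 0.91. UPP1, DCTPP1 and CTPS1 had 1 probe set each, so their differences have no such check.

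**Figure D4:**
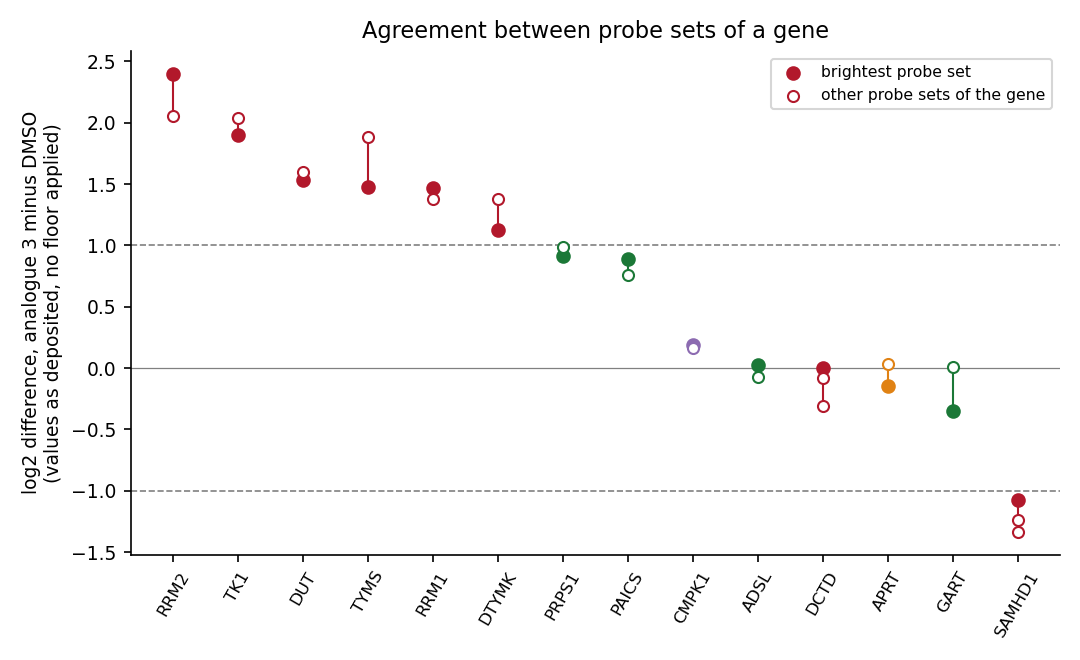
Log2 difference (analogue 3 minus DMSO, deposited values with no floor) in the brightest probe set (filled) and the other probe sets (open) of the 14 members with at least 2 measured probe sets. RRM2, TK1, DUT, TYMS, RRM1 and DTYMK lie above 2-fold and SAMHD1 below it in each probe set shown, and only GART, ADSL and APRT have values on both sides of 0.

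Among 51 other genes of nucleotide metabolism, taken as a list of pathway genes, 45 had a probe set of their own and 23 were measured. None of the 23 was at least 2-fold higher, and 1 was at least 2-fold lower. Their median log2 difference was -0.12. CMPK2, a mitochondrial nucleotide kinase that interferon induces, had 18.5 with analogue 3 and 146.9 with DMSO, or at least 4.59-fold lower. The next largest downward were in the nucleotidases, which remove phosphate from nucleotides. NT5E, the surface enzyme CD73, had 116.9 with analogue 3 and 203.8 with DMSO (1.74-fold lower), and NT5C2 had 74.5 with analogue 3 and 120.2 with DMSO (1.61-fold lower). The largest upward were in AK1, an adenylate kinase, at 58.4 with analogue 3 and 36.4 with DMSO (1.60-fold higher), the mitochondrial NME4 (1.53-fold higher) and CDA, cytidine deaminase (1.46-fold higher). NUDT1, which removes oxidised purine triphosphates, was 35.1 with analogue 3 and 13.3 with DMSO, at least 1.10-fold higher. When the floor was lowered to log2 1, 36 genes were measured, of which 1 was at least 2-fold higher (against 3.76% of all genes at that floor) and 2 at least 2-fold lower (against 5.25%), so both shares are near the background. The higher one was NUDT1, and the second lower one was GMPR, which reduces GMP to IMP, at 1.91 with analogue 3 and 4.10 with DMSO.

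The cells expressed VIM at 1868 with analogue 3 and 1883 with DMSO, and KRT18 at 457.9 with analogue 3 and 460.8 with DMSO. KRT8 was 77.8 with analogue 3 and 42.3 with DMSO, whereas the epithelial markers EPCAM, CDH1, KRT7 and KRT19 were under the floor on both arrays. No marker of endothelium, fibroblasts, leukocytes or differentiated lung cells reached the floor. The summed leukocyte markers came to 2.26 with analogue 3 and 2.78 with DMSO, and the highest marker of these 4 lists was PECAM1, at 15.7 with analogue 3 and 11.4 with DMSO.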

How the data were processed

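RNA from 2 cultures was measured on 1 array each, per the labels. The authors deposited 1 intensity per probe set and array (54675 probe sets). GCRMA, a sequence-based background correction with quantile normalization, is named in the submitters' processing notes, and its version is not given in the sources used here. Each deposited intensity column has a median of 1 and is linear. A division by the array median is read from the values and stated nowhere. Names came from the platform annotation at GEO (41097 with 1 gene, 1801 with several, 11777 unlisted), and 41043 of the single-gene probe sets matched RefSeq gene numbers.

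The brightest probe set represented a gene. Values under log2 5 were raised to it, a level reached by 13.1% (analogue 3) and 13.4% (DMSO) of probe sets. A difference was called at 2-fold. All calls were made over the whole table with Python 3.11.15 (pandas 2.3.3). The code was also run on simulated arrays with known changes in genes well above the floor. That run did not test calls near the floor or close to 2-fold. Every listed member is named. Of the other pathway genes, those at least 2-fold different and the 3 largest each way are named. Members, gene lists and motifs were chosen with earlier results of these data known. Alternatives changed the floor, scaling, probe-set rule and fold threshold. The number of arrays limits the precision. Cultures were not replicated, so no p-value is given. NME2, UCK2 and ADSS2 were left out for want of a single-gene probe set.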

Additional observations from a re-analysis of the deposited data

How the results depend on the processing

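No paired analysis was possible because each group has 1 array. Members at least 2-fold higher numbered 8 of 30, against 3.47% of all measured genes. They were 4 of 18 with a floor of log2 7 and 5 of 19 without _s_at, _x_at and _a_at probe sets, where fewer members were measured. Members still measured also fell short of 2-fold where the floor raised their DMSO value. These were DCTPP1 (log2 difference 0.03) at log2 7 and DTYMK (0.94) without those probe sets. They were 13 at 1.5-fold, against 9.45% of all measured genes, and 1 at 3-fold. Members at least 2-fold lower numbered 2, against 2.67% of all measured genes. They were 1 with a floor of log2 7, 1 with the median over probe sets and 1 at 3-fold. With the floor of log2 7 and with the median over probe sets, the floor raised the analogue 3 value of SAMHD1. This left a bound short of 2-fold. Shares over all genes are not given for the floor of log2 7, the other probe-set rules or 3-fold. The counts at those settings are therefore not set against a background, and say nothing on whether the members exceed it there. The deoxynucleotide median of 1.13 was 1.33 with floors of log2 4 and log2 3, and 1.47 with a floor of log2 7, where 6 were measured. The median of the other members, 0.19, was 0.46 with a floor of log2 4 and also without _s_at, _x_at and _a_at probe sets. It was 0.40 with a floor of log2 3, and 0.43 with a floor of log2 1 and with no floor. The remaining 29 values for these 4 results stayed within 1.5 times (counts) or within the probe-set scatter of 0.17 (medians), and no median changed sign. At log2 4 the same number of members was measured as at log2 5, and values that the higher floor had raised were no longer raised: the log2 differences at log2 4 were 1.90 in TK1, 0.51 in CAD and 0.83 in UMPS, against 1.06, 0.04 and 0.16 at log2 5. At the other floors, and without the 3 probe-set kinds, the number of measured members changed as well. Over the alternatives to floor, scaling and probe sets, 26 of the 30 measured members kept 1 sign. The exceptions were ADK, ADSL, DCTD and IMPDH2. RRM2 ran from 1.81 to 2.41, UPP1 from -2.10 to -1.35, and SAMHD1 from -1.33 to -0.33 (log2). Of these, 1.81, -1.35 and -0.33 are bounds at the floor of log2 7, which raised the lower intensity of each gene. With the median over probe sets SAMHD1 was -0.54, which is also a bound. That median takes in the probe sets under the floor, and the analogue 3 value fell under log2 5 and was raised. DCTPP1 ran from 0.03, a bound at the floor of log2 7, to 1.34. Genes under the floor are the ones that these arrays measure least surely.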
